A study of Mus musculus with 6 samples.

Results

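The long noncoding RNAs Miat, Gas5, Malat1, Neat1, Snhg1, Snhg6, Snhg8, Snhg11, Snhg12 and Epb41l4aos were looked up by gene symbol in poly-A RNA-seq of mouse retinal ganglion cells (RGCs), which carry visual signals from the eye to the brain. Of these 10, 9 had a row among the 10361 gene names of the table, and Neat1 was not analysed here. Miat and Gas5 were chosen by their change between groups, so their values are given as a description with no test. The other 7 were listed by name and were tested. That list was drawn up with earlier results of these data known, so these tests are not independent of that choice. All 9 passed the filter on low values, which asked for 1 FPKM or more on average over the 6 libraries. FPKM, the authors' unit, counts sequenced fragments relative to transcript length and to the size of the library.

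The 6 libraries formed 3 groups of 2, all from wild-type mice of the strain written C57/6NCrl in the labels. In the adult control group, RGCs had been transduced with AAV2 that expressed mCherry with a scramble shRNA mimic. In the adult miR-1247 group, AAV2 expressed a miR-1247-5p mimic instead. RGCs of embryonic day 18 (E18), for which the labels name no vector, made up the last group. An adult condition gave about 5000 RGCs from 10 retinas, isolated by Thy1 immunopanning and then a sort for mCherry, while about 50000 E18 RGCs were isolated by immunopanning with no sort named. Age, vector, sorting and cell number therefore cannot be told apart between E18 and adult libraries. Nothing in the labels says that the 2 libraries of a group came from separate animals, so a p-value here reflects only how much these libraries varied, and that variation may be technical. Across genes, which are not independent replicates, log2(FPKM + 1) correlated at r = 0.980 to 0.985 within a group, 0.960 to 0.962 between the adult groups, and 0.692 to 0.701 between E18 and adult RGCs. Of 20 RGC markers 19 had a row, and the markers searched for microglia (10) and for endothelial cells and pericytes (8) had none. The depth in fragments is unknown, since the table holds no counts.

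Nuclear RNAs and snoRNA hosts are both in this set. Miat (also called Gomafu or Rncr2), Malat1 and Neat1 are long nuclear RNAs. Miat is abundant in neurons and is known in the retina for its part in the specification of retinal cell types, and Malat1 gathers in nuclear speckles, where splicing factors are stored. The other RNAs named above are host genes of small nucleolar RNAs (snoRNAs), short RNAs that guide the chemical modification of ribosomal RNA and are cut from the introns of their host. The spliced host RNA that remains often has no long reading frame and is known to be removed by nonsense-mediated decay once ribosomes engage it. Many hosts, like the ribosomal protein genes, begin at a 5′ terminal oligopyrimidine tract, a run of C and T at the transcription start that links their translation to growth signals.

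The sequence at the transcription start is shown for the 7 RNAs that matched an entry of RefSeq's promoter table (GRCm38.p6), because a start tract is a known feature of many snoRNA hosts. Snhg6 and Epb41l4aos had no entry. Each line holds 40 bases on the strand of the gene, 20 before the annotated start and 20 from it on. Capitals mark a run that begins with C, holds at least 5 bases that are each C or T, and begins within 5 bases of the start. Only the strand of the gene was searched. Gas5 has a pair of annotated starts, and both are shown.
Miat, chr5:112228929-112228968, minus strand: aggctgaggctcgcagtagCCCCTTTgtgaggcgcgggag
Gas5, chr1:161035146-161035185, plus strand: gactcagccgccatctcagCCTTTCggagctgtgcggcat
Gas5, chr1:161034581-161034620, plus strand: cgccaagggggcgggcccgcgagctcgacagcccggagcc
Snhg8, chr3:123508317-123508356, minus strand: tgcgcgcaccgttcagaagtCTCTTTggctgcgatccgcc
Snhg12, chr4:132308658-132308697, plus strand: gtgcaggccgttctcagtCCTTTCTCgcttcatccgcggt
Snhg1, chr19:8723467-8723506, plus strand: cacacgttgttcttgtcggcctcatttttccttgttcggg
Snhg11, chr2:158375693-158375732, plus strand: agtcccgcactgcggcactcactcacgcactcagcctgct
Malat1, chr19:5802653-5802692, minus strand: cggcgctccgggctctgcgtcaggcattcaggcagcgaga
A tract was found in 4 of the 7 genes (57.1%), against 5718 of 27025 genes of the whole table (21.2%). The share was 5 of 13 (38.5%) among other noncoding snoRNA hosts, 6 of 22 (27.3%) among protein-coding hosts and 6 of 18 (33.3%) among other long noncoding RNAs. A match describes these letters and does not show that a transcript starts there, and the lack of one says only that no such run lies in the window.

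The microRNA delivered to the adult RGCs is shown next because it is the agent of one comparison. Its mature sequence in RefSeq (chr12:110278094-110278115 of GRCm38.p6, minus strand, 22 bases) has its seed, bases 2 to 8, in capitals. A transcript holds a full seed match where it contains the letters GGACGGG, which were searched on the transcript strand of every GENCODE vM39 transcript of the 9 RNAs.
miR-1247-5p: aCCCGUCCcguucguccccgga
Snhg11, bases around the match at 305 to 311 of a transcript of 5864 bases: ccaggaccctaGGACGGGatgctaggact
Malat1, bases around the match at 7624 to 7630 of a transcript of 7886 bases: cctggtttccaGGACGGGgttcaagtccc
The match was present in 7 of 7 Snhg11 transcripts and in 1 of 23 Malat1 transcripts. The 18 transcripts of Miat and the 229 of Gas5 held no full match, nor did those of the other 5 RNAs. Among the tested long noncoding genes 29 of 159 (18.2%) held the full match, and among all tested genes with GENCODE transcripts 2042 of 9660 (21.1%). Of the RNAs without a full match, a shorter match to bases 2 to 7 occurred up to 2 times in a Miat transcript. It occurred up to 1 time in one of Snhg12 or Epb41l4aos, and Gas5, Snhg1, Snhg6 and Snhg8 held none. The share of all genes with this shorter match was not counted. A match is a description of the sequence and not evidence of binding.

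Miat stood in the same order of levels in both libraries of each group: highest at E18, lower in adult control and lowest in adult miR-1247 RGCs. The gene lies on chromosome 5 from 112361094 to 112377261 of GRCm39, minus strand, holds no annotated snoRNA gene, and its longest annotated spliced form is 9163 bases. Its level was 62.8 and 60.0 FPKM in the adult control libraries, 20.4 and 18.7 in the adult miR-1247 libraries, and 202 and 204 at E18. The 3 groups did not overlap. The E18 mean was 3.31 times the control mean, the control mean was 3.14 times the miR-1247 mean, and the E18 mean was 10.4 times the miR-1247 mean. The authors' deposited table gives a log2 ratio of -1.65 for miR-1247 over control and -1.73 for control over E18.

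The summed level of the 19 RGC markers with a row had the same order as Miat: 3979 and 3928 FPKM in adult control, 2434 and 2410 in adult miR-1247 and 6744 and 6745 at E18. Single markers did not all follow that order: against adult control, 13 of the 19 were called higher at E18, among them Tubb3, Sncg and Stmn2, and 6 were called lower (Slc17a6, Thy1, Nefh, Nrn1, Opn4 and Eomes). All 19 markers were called lower in adult miR-1247 than in adult control RGCs, and 12 were without adult control replicate 2 or without either miR-1247 library. The 6 Müller glia and astrocyte markers with a row, out of 11, summed to 1574 and 1230 FPKM in control, 2017 and 1908 in miR-1247 and 181 to 182 at E18. Against control, 5 of these 6 were called lower at E18 and Vim was called higher. Vim averaged 42.7 ± 2.49 FPKM at E18 and 1.12 ± 0.68 in control (SD, n = 2). Glul alone was at 463 and 122 FPKM in control and 795 and 632 in miR-1247, and the other 5 summed to 1111 and 1108 in control and 1221 and 1276 in miR-1247. Dkk3 was the 1 of these 6 called between the adult groups. The defining Müller glia and astrocyte markers Rlbp1, Slc1a3, Aqp4, Gfap and Sox9 had no row. The 6 of 11 amacrine cell markers with a row, which leave out Gad1, Slc32a1, Tfap2a, Tfap2b and Chat, summed to 1576 to 1623 FPKM in the 4 adult libraries and 927 to 957 at E18. In control, miR-1247 and E18, 3 of 13 photoreceptor markers summed to 45.6 to 46.8, 24.3 to 26.9 and 5.57 to 6.41 FPKM, 3 of 10 bipolar cell markers to 25.1 to 30.04, 40.4 to 40.9 and 11.3 to 12.7, and 1 of 7 oligodendrocyte markers, Mbp, stood at 24.2 to 24.9, 35.6 to 41.5 and 9.15 to 11.5. The other markers of these 3 lists were not analysed here. The 2 of 10 retinal progenitor markers with a row, Hes6 and Dapl1, summed to 18.6 to 22.4 FPKM in the 4 adult libraries. At E18 they summed to 49.5 to 52.9 FPKM, and both were called higher than in control. The part of cell make-up in the levels of Miat was not tested, and in these bulk libraries fewer cells of a type and less RNA per cell cannot be told apart.

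The tested genes whose pattern over the 6 libraries was most like that of Miat were chosen by the smallest Euclidean distance of log2(FPKM + 1) around the gene's own mean, out of 9987. They were Rbm3 (distance 0.674), which encodes a cold-inducible RNA-binding protein, Slc29a4 (0.744), a monoamine transporter, Rad9b (0.787), a DNA damage checkpoint protein, Apex1 (0.798), a DNA repair endonuclease, and Nell2 (0.817), a secreted neural glycoprotein. Rbm3 averaged 22.7 ± 4.35 FPKM in control, 6.19 ± 2.91 in miR-1247 and 87.7 ± 1.86 at E18 (SD, n = 2 in each group). Nell2 averaged 76.3 ± 4.55, 42.2 ± 0.958 and 382 ± 2.74 FPKM in the same order (SD, n = 2).

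Malat1 was at nearly the same level in all 3 groups. It is a single gene on chromosome 19 from 5845717 to 5853602 of GRCm39, minus strand, whose longest annotated form of 7886 bases spans the gene without an intron. Its level was 121 and 140 FPKM in adult control, 117 and 114 in adult miR-1247 and 112 and 126 at E18. The lowest control library was above both miR-1247 libraries, and the E18 libraries overlapped both adult groups. On the log2(FPKM + 1) scale the difference of E18 to control was -0.13 ± 0.088 (SE, 95% interval -0.34 to 0.08, adjusted p = 0.232 in limma), and that of miR-1247 to control was -0.17 ± 0.088 (interval -0.38 to 0.04, adjusted p = 0.253). These intervals are narrow but do not show that the level was equal. With the libraries scaled to the median ratio of all genes, Malat1 was called lower at E18 than in control (-0.28, adjusted p = 0.0260), and its difference between E18 and miR-1247 turned from 0.04 to -0.15. The full-length Malat1 RNA is known to end in an encoded A-rich tract in place of a poly-A tail, which poly-A selection captures.

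**Figure D1:**
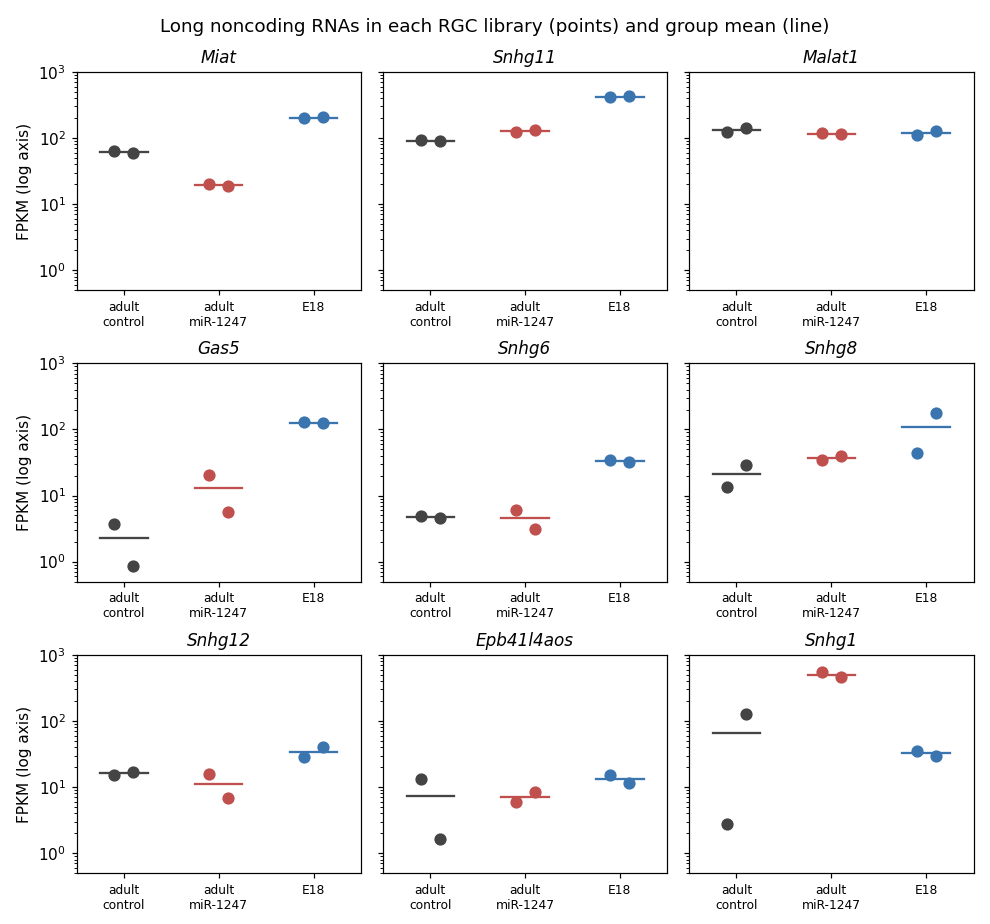
Level of each long noncoding RNA in FPKM (log axis) in the 6 RGC libraries. Points are single libraries and lines are group means. Miat and Snhg11 show close pairs and separate groups, Malat1 lies between 112 and 140 FPKM in every library, and the 2 adult control libraries of Snhg1 stand at 2.73 and 129 FPKM.

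Gas5, the growth arrest-specific transcript that hosts annotated snoRNA genes at 9 positions, was low in adult RGCs and high at E18. The gene lies on chromosome 1 from 160861793 to 160866118 of GRCm39, plus strand. Its level was 3.67 and 0.869 FPKM in adult control, 20.5 and 5.66 in adult miR-1247 and 128 and 126 at E18. The groups did not overlap, but the libraries of an adult group differed from each other by 4.22-fold in control and 3.61-fold in miR-1247, against 1.02-fold at E18. The E18 mean was 55.9 times the control mean, and the miR-1247 mean was 5.75 times the control mean. Because 1 is added before the log, the log2 difference of E18 to control was 5.44, and it was 4.21 with 5 added.

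The locus under which the table lists Gas5 runs over 92013 bases, more than the annotated gene. The kit as named keeps no strand, so fragments of genes that overlap on opposite strands cannot be assigned by strand. By the same distance as for Miat, the genes most like Gas5 were Gm3728 (1.65), Rpl36 (1.76), a ribosomal protein gene, Traf4 (1.82), a signalling adaptor, Ccdc84 (1.87) and Cep70 (1.89), a centrosomal protein. Rpl36 averaged 9.27 ± 6.49 FPKM in control, 16.8 in miR-1247 and 176 ± 4.81 at E18 (SD, n = 2). Gm3728 and Ccdc84 were listed at 0 in both control libraries.

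Among the 7 RNAs open to a test, 4 were higher at E18 than in adult control RGCs (Snhg6, Snhg11, Snhg8 and Snhg12) and 0 were lower in limma, also at an unadjusted p under 0.05. Malat1, Snhg1 and Epb41l4aos did not pass. Of all 9987 genes tested, 40.2% were called higher and 29.8% lower in this comparison, so a call was common. With Miat and Gas5 counted, 6 of 9 RNAs had E18 and control libraries that did not overlap, against 85.5% of all tested genes. Miat and Gas5 were chosen by their change, so their part in this count is no result. The tested RNAs without overlap were Snhg6, Snhg8, Snhg11 and Snhg12. The median difference of all genes was 0.16 on the log2(FPKM + 1) scale as deposited and 0.02 with median ratio scaling, and all differences are to be read against it.

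Snhg11, a brain-enriched host of 2 annotated snoRNA genes, gave the most precise rise. It lies on chromosome 2 from 158217558 to 158228071 of GRCm39, plus strand, and is the only RNA of the set in which every annotated transcript holds the seed match shown above. Its level was 92.7 and 89.0 FPKM in adult control, 122 and 132 in adult miR-1247 and 423 and 425 at E18. The 3 groups did not overlap. At E18 it was higher than in control by 2.21 ± 0.056 on the log2 scale (SE, adjusted p = 4.00e-07 in limma). Between the adult groups it was higher in miR-1247 by 0.48 ± 0.056 (adjusted p = 0.00838), a 1.40-fold difference of means. This second call was lost without the trend of the variance with the mean level (adjusted p = 0.0562) and without adult control replicate 2 (0.45, adjusted p = 0.05001).

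Snhg6 and Snhg8 each hold 1 annotated snoRNA gene. Snhg6, on chromosome 1 from 9926809 to 10014504 of GRCm39, minus strand, was at 4.95 and 4.55 FPKM in control, 6.04 and 3.12 in miR-1247 and 34.7 and 31.7 at E18. Both E18 libraries stood far above the 4 adult ones, a rise over control of 2.57 ± 0.25 (SE, adjusted p = 0.000122 in limma). Its table locus spans 146199 bases, more than the annotated gene, and exons of Mcmdc2 overlap it on the other strand. Snhg8, on chromosome 3 from 123301192 to 123302578, minus strand, was at 13.3 and 28.6 FPKM in control, 34.7 and 39.4 in miR-1247 and 44.3 and 177 at E18. The E18 libraries differed 4.0-fold from each other, yet both were above all adult libraries. The rise of Snhg8 over control was 2.13 ± 0.62 (SE, adjusted p = 0.0198). It was not called without E18 replicate 2 (1.14, adjusted p = 0.0808) or without adult control replicate 1 (1.60, adjusted p = 0.113).

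Snhg12 holds annotated snoRNA genes at 4 positions and lies on chromosome 4 from 132035905 to 132038762 of GRCm39, plus strand. It was at 15.4 and 17.2 FPKM in control, 15.6 and 6.84 in miR-1247 and 28.1 and 40.3 at E18. The E18 libraries were above all adult libraries. The rise over control of 1.01 ± 0.34 (SE, adjusted p = 0.0356 in limma) was the least firm of the 4. It was lost under 7 of 16 alternatives, with adjusted p of up to 0.214. One of them was median ratio scaling (0.86, adjusted p = 0.0629).

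Snhg1 had the widest spread between replicates. It holds 8 annotated snoRNA genes and lies on chromosome 19 from 8700319 to 8703812 of GRCm39, plus strand. Its level was 2.73 and 129 FPKM in adult control, 552 and 455 in adult miR-1247 and 35.5 and 29.9 at E18. The control libraries differed 47.3-fold, with the E18 libraries between them and the miR-1247 libraries above all others. The neighbouring Slc3a2, an amino acid transporter subunit whose exons overlap Snhg1 on the other strand, was at 22.6 and 28.3 FPKM in control, 28.8 and 27.2 in miR-1247 and 44.6 and 49.3 at E18, without such a gap.

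The difference of Snhg1 between miR-1247 and control was 4.51 ± 1.42 on the log2 scale (SE, 95% interval 1.11 to 7.91, adjusted p = 0.0950 in limma) and did not pass. It was 1.95 without control replicate 1 and 7.07 without control replicate 2. A fit with 1 control library left holds no spread between control libraries, so it gives no usable test of this difference. Between E18 and control the mean in FPKM was lower at E18 (32.7 against 65.9), while the mean log2 difference was 0.61 ± 1.42 (interval -2.79 to 4.01, adjusted p = 0.717). That log2 difference was -1.95 without control replicate 1 and 3.17 without control replicate 2. One library thus set its direction, and these libraries do not give one.

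Epb41l4aos, a host of 1 annotated snoRNA gene on chromosome 18 from 33927232 to 33932266 of GRCm39, plus strand, also depended on a control library. Its level was 13.1 and 1.65 FPKM in control, 6.03 and 8.34 in miR-1247 and 15.1 and 11.4 at E18. The groups of E18 and control overlapped. Its difference of E18 to control was 1.21 ± 0.70 (SE, 95% interval -0.46 to 2.88, adjusted p = 0.161 in limma). Without control replicate 1 that difference was 2.42, and without control replicate 2 it was 0.00028.

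**Figure D2:**
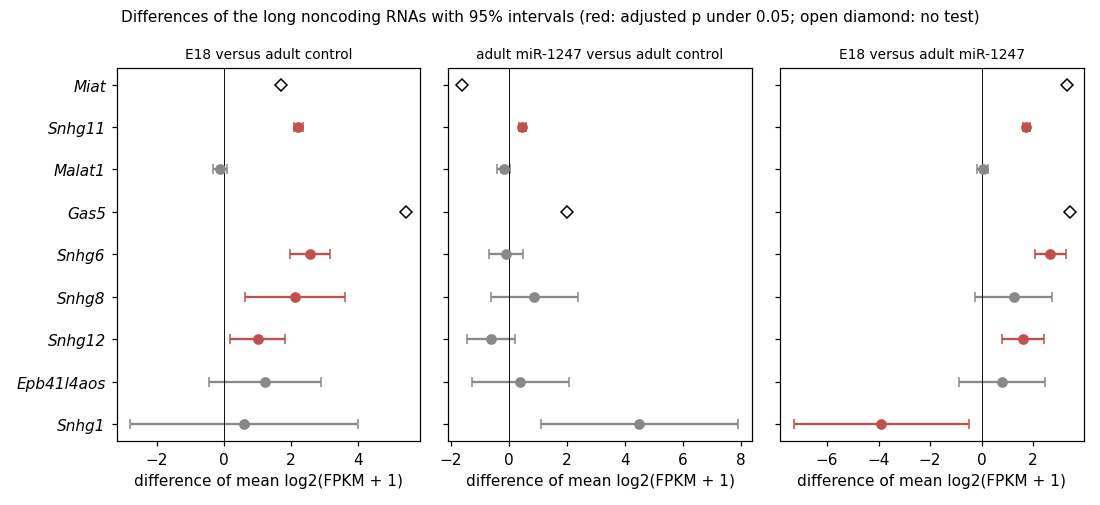
Difference of mean log2(FPKM + 1) of each long noncoding RNA in the 3 comparisons, with 95% intervals from limma. Red points have an adjusted p under 0.05, grey points do not, and open diamonds mark Miat and Gas5, which were not tested. Snhg11 has the narrowest interval and Snhg1 the widest in each comparison.

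Between the adult groups, Snhg11 was the 1 RNA of 7 that passed in limma, as higher in miR-1247. At an unadjusted p under 0.05, 2 were higher (Snhg11 and Snhg1) and 0 lower. Over all genes, 3.53% were called higher and 6.22% lower. The split of calls depended on the scaling: it was 353 higher and 621 lower as deposited, 461 and 526 with median ratio scaling, 467 and 512 after rescaling without the mitochondrial genes, and 136 and 764 with equal totals. Of the 9 RNAs, 6 had groups that did not overlap, against 57.7% of all genes. These 6 include Miat and Gas5, which were chosen by their change, so their part in the count is no result. The tested RNAs without overlap were Malat1, Snhg1, Snhg8 and Snhg11. Snhg8 had a difference of 0.89 ± 0.62 (interval -0.61 to 2.38, adjusted p = 0.396), Snhg12 of -0.60 ± 0.34 (interval -1.42 to 0.23, adjusted p = 0.307), Snhg6 of -0.09 ± 0.25 (interval -0.69 to 0.50, adjusted p = 0.837) and Epb41l4aos of 0.41 ± 0.70 (interval -1.26 to 2.07, adjusted p = 0.744), all as SE in limma. Each of these 4 intervals holds 0. For Epb41l4aos the mean in FPKM was lower in miR-1247 (7.18 against 7.40) while the log2 difference was positive.

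Against adult miR-1247 RGCs, E18 RGCs had higher Snhg6 (2.67 ± 0.25, adjusted p = 0.000105), Snhg11 (1.73 ± 0.056, adjusted p = 9.79e-07) and Snhg12 (1.60 ± 0.34, adjusted p = 0.00538), and lower Snhg1 (-3.90 ± 1.42, adjusted p = 0.0440), as SE in limma. The call of Snhg1 was lost with a pseudocount of 0.1 (adjusted p = 0.0626), with each locus on its own (0.0514), with no variance trend (0.0737) and without any 1 library of these groups (0.127 to 0.178). That of Snhg12 was lost without E18 replicate 2 (1.35, adjusted p = 0.0581). Snhg8 (1.24 ± 0.62, interval -0.25 to 2.73, adjusted p = 0.115) and Epb41l4aos (0.80 ± 0.70, interval -0.86 to 2.47, adjusted p = 0.332) did not pass. Without E18 replicate 1 the difference of Snhg8 was 2.23. Epb41l4aos was called with only the 2 groups compared (adjusted p = 0.0168), a fit in which its widely spread control libraries do not enter. Snhg1, whose control libraries also spread widely, kept its call in that fit (-3.90, adjusted p = 1.21e-05 in limma). Of all genes, 41.5% were called higher and 28.4% lower. For 8 of the 9 RNAs the groups did not overlap, against 86.3% of all genes. These 8 include Miat and Gas5, which were chosen by their change. Among the tested RNAs only Malat1 overlapped. The 3 comparisons share libraries, so they are not independent.

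Ordered by mean FPKM, which is per length, Malat1 was the most abundant of the 9 RNAs in adult control (131 ± 13.4), followed by Snhg11 (90.9 ± 2.63), Snhg1, Miat, Snhg8, Snhg12, Epb41l4aos, Snhg6 and Gas5 (2.27 ± 1.98, all SD, n = 2). In adult miR-1247 the order was led by Snhg1 (503.5 ± 68.7), Snhg11 (127 ± 7.24) and Malat1 (116 ± 2.02), with Miat and Gas5 in the middle and Snhg6 last (SD, n = 2). At E18 it was led by Snhg11 (424 ± 1.49), Miat (203 ± 1.5) and Gas5 (127 ± 1.51), with Epb41l4aos last (13.3 ± 2.60; SD, n = 2). Gas5 was thus last in adult control and among the top 3 at E18. Neighbours in these orders that overlapped were Snhg11 and Snhg1, Snhg1 and Miat, Snhg8 and Snhg12, and Epb41l4aos and Snhg6 in control. In miR-1247 every neighbouring pair from Miat downward overlapped. At E18 the pairs Gas5 and Malat1, Malat1 and Snhg8, Snhg12 and Snhg6, and Snhg6 and Snhg1 overlapped.

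The RNAs fell apart by how well replicate libraries repeated. The SD between libraries of a group, on the log2(FPKM + 1) scale, had a median of 0.133 over the 9987 tested genes, and 6 of the 9 RNAs were above it. Snhg11 (0.053), Miat (0.056) and Malat1 (0.11) repeated well. Snhg6 (0.32), Snhg12 (0.49), Gas5 (0.87), Snhg8 (0.92), Epb41l4aos (1.01) and Snhg1 (2.10) repeated less well on this SD, which pools the groups. These 6 are all snoRNA hosts, as is Snhg11. The spread was not in every group: the libraries of Snhg6 differed 1.94-fold in miR-1247 but 1.09-fold in control and 1.10-fold at E18. Those of Snhg1 differed 47.3-fold in control, 1.21-fold in miR-1247 and 1.19-fold at E18. At least 97.1% of all tested genes had a smaller SD than each of Snhg12, Gas5, Snhg8, Epb41l4aos and Snhg1, and for Snhg1 the share was 99.99%. Among tested genes that matched GENCODE, the median SD was 0.355 for 12 other long noncoding genes with a snoRNA gene inside, 0.282 for 137 other long noncoding genes, 0.125 for 208 protein-coding genes with a snoRNA gene inside and 0.132 for 9282 protein-coding genes without one. These 4 medians are a description with no test, and the long noncoding genes with no snoRNA gene inside were also lower in level.

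**Figure D3:**
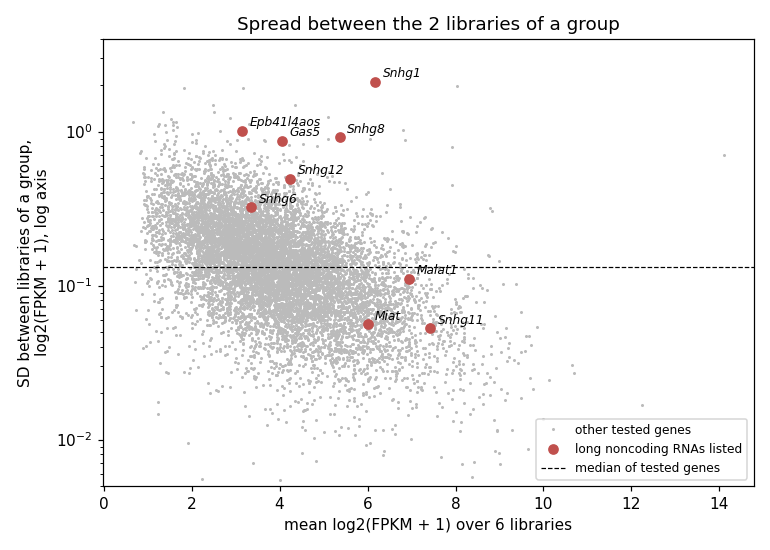
Spread between the 2 libraries of a group (SD of log2(FPKM + 1), log axis) against the mean level over 6 libraries, for all 9987 tested genes (grey) and the 9 long noncoding RNAs (red). The dashed line is the median of all genes at 0.133. Snhg1 is at the top at 2.10, and Miat, Malat1 and Snhg11 are below the line.

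Other genes of the same pathways were read from lists, first in E18 against adult control, where 40.2% of all genes were called higher and 29.8% lower. The lists were also chosen with earlier results of these data known, so their counts are not independent of that choice. Of 8 tested genes on a list of noncoding snoRNA hosts outside the set, which does not hold every such host, 7 were higher at E18 and none lower, with a median difference of 2.01 against 0.16 over all genes. Rows shared with a protein-coding gene (Rcc1 with Snhg3, Matr3 with Snhg4) are among these 7 and cannot be given to the noncoding host. Without them 5 of 6 were higher, with a median of 2.67. Snhg5 was at 43.8 ± 6.81 FPKM at E18 and 3.09 ± 0.075 in control (SD, n = 2), a difference of 3.45 ± 0.26 (SE, adjusted p = 3.61e-05 in limma), and Zfas1 at 47.5 ± 2.89 and 4.02 ± 1.07 FPKM (3.29 ± 0.17, adjusted p = 7.30e-06). Snhg16 was at 17 ± 1.92 FPKM at E18 and was listed at 0 in 1 of the 2 control libraries. Most of the 33 protein-coding hosts on a further list encode ribosomal proteins. The 3 not called in either direction, Eif4a2, Hspa9 and Ncl, do not, nor do Tpt1 and Eef1b2, which were called higher. Of all 33, 29 were higher and 1 lower, with a median of 1.73. The largest rises among them were those of the ribosomal protein genes Rpl30 (4.8 ± 0.44, adjusted p = 9.56e-05), Rps12 (3.97 ± 0.22) and Rpl12 (3.45 ± 0.18), while Rps2 was lower (-0.34 ± 0.078, adjusted p = 0.00779). With median ratio scaling 4 protein-coding hosts were called lower.

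Proteins that act on these RNAs went both ways, and their counts are to be read against the 40.2% of all genes called higher and the 29.8% called lower. Of 15 proteins that bind or assemble snoRNA particles, 7 were higher at E18 and 2 lower, with a median of 0.38. Nop56 (1.57 ± 0.18) and fibrillarin, Fbl, the methyltransferase of the particle (1.44 ± 0.28), rose, as did the assembly factor Ruvbl2 (1.53 ± 0.13), while Snu13 (-0.74 ± 0.078) and Naf1 (-1.45 ± 0.22) fell (SE). With median ratio scaling 4 of the 15 were called lower. Of 10 nonsense-mediated decay factors, 3 were higher, among them Smg8 and Upf3b, and 3 lower (Smg5, Smg9 and Upf2), with a median of 0.16, that of all genes.

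Proteins of the nuclear bodies in which Malat1 and Neat1 are known to act were mostly higher at E18. Of 12 paraspeckle proteins, the proteins that gather on Neat1, 12 were higher than in adult control (9 with median ratio scaling), with a median of 1.01, among them Hnrnpa1 (2.06 ± 0.072, SE, adjusted p = 1.33e-06). Tardbp was at 95.5 ± 9.96 FPKM at E18 and was listed at 0 in all 4 adult libraries, which may be a failed estimate. Of 16 nuclear speckle and splicing regulators, 14 were higher and none lower, with a median of 1.12, among them Srsf6 (2.51 ± 0.085) and Celf3 (2.17 ± 0.10, SE), a splicing regulator known to bind Miat. The calls of both lists are to be read against the 40.2% of all genes called higher.

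Other long noncoding RNAs did not share one direction. Of 15 tested, 3 were higher at E18 than in adult control and 5 lower, with a median of 0.05, against 40.2% higher and 29.8% lower over all genes. Meg3, an imprinted RNA, was at 502 ± 0.605 FPKM against 49.2 ± 1.58 (SD, n = 2; difference 3.33 ± 0.054, adjusted p = 8.00e-08 in limma), and Six3os1, a retinal RNA antisense to Six3, rose by 2.55 ± 0.087. Crnde rose by 2.17 ± 0.26. Tunar, a neural RNA, was lower (-1.75 ± 0.13), as were Oip5os1 (-0.83 ± 0.086) and the locus that holds Peg13 and Trappc9 (-0.84 ± 0.057, all SE).

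**Figure D4:**
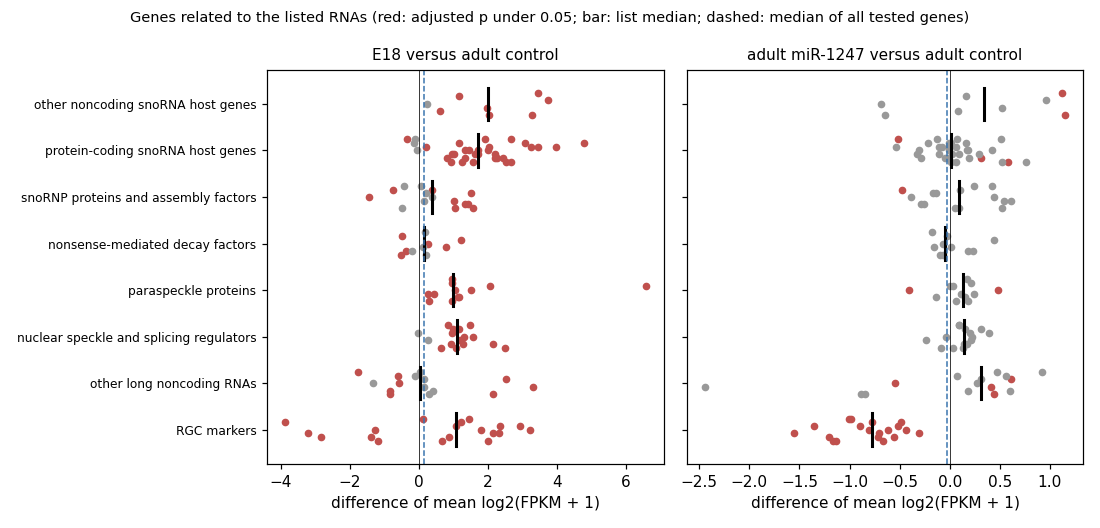
Difference of mean log2(FPKM + 1) of single genes in the lists related to the long noncoding RNAs, E18 against adult control on the left and adult miR-1247 against adult control on the right. Red points have an adjusted p under 0.05, black bars are list medians and the dashed line is the median of all tested genes. The noncoding and protein-coding snoRNA hosts have medians of 2.01 and 1.73 on the left and 0.34 and 0.02 on the right.

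Between the adult groups few genes of these lists passed, as did few of all genes (3.53% higher and 6.22% lower). Higher in miR-1247 were 2 of 8 noncoding hosts, Zfas1 (1.16 ± 0.17, adjusted p = 0.0154) and Snhg5 (1.12 ± 0.26, adjusted p = 0.0436), with a list median of 0.34 against -0.03 over all genes. Among 33 protein-coding hosts, Rps20 (0.59 ± 0.13, adjusted p = 0.0409) and Rps3 (0.31 ± 0.066, adjusted p = 0.0381) were higher and Rps2 was lower (-0.51 ± 0.078, adjusted p = 0.0174), with a median of 0.02. Nolc1, 1 of 15 snoRNA particle proteins, was lower (-0.47 ± 0.11, adjusted p = 0.0450), and 0 of 10 decay factors and 0 of 16 speckle and splicing regulators were called in limma, against 1 and 2 at an unadjusted p under 0.05. Of 12 paraspeckle proteins, 1 was higher, Sfpq (0.48 ± 0.058, adjusted p = 0.00931), and 1 was lower. Among other long noncoding RNAs Mir124-2hg, host of a neuronal microRNA (0.61 ± 0.064, adjusted p = 0.00585), Oip5os1 (0.45 ± 0.086) and Meg3 (0.42 ± 0.054) were higher and Mir100hg was lower (-0.55 ± 0.10, all SE). Each of the genes named here, and Snhg11 with them, lost its call under 1 or more of the 16 alternatives.

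Against adult miR-1247 RGCs, the same lists were read at E18, where 41.5% of all genes were called higher and 28.4% lower. Higher were 8 of 8 noncoding hosts (6 of 6 without the shared rows), with a median of 1.79 against 0.19 over all genes, among them Dancr at 12 ± 2.53 against 0.990 ± 0.000676 FPKM (SD, n = 2; difference 2.69 ± 0.35, adjusted p = 0.000501 in limma). Of 33 protein-coding hosts 28 were higher and 0 lower in limma, with a median of 1.62, and at an unadjusted p under 0.05 these numbers were 29 and 0. The snoRNA particle proteins split into 6 higher and 4 lower of 15, and the decay factors into 4 higher and 3 lower of 10. Of the nuclear body proteins, 9 of 12 in paraspeckles and 15 of 16 speckle and splicing regulators were higher. Other long noncoding RNAs went both ways, with 4 of 15 higher and 5 lower, among them Oip5os1 (-1.28 ± 0.086) and Tunar (-2.22 ± 0.13, SE).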

How the data were processed

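Poly-A RNA was sequenced from 6 RGC libraries in 3 groups of 2. Per the submitters' processing notes, which name HISAT2, Cufflinks, Cuffdiff and the build mm39, the authors made FPKM per library. Versions and the filter behind the table are not given in the sources used here. The deposited FPKM carried an added 1e-05, which was taken off. The authors also deposited log2 ratios of group means, which lay within 0.00206 of recomputed ones. Depth in fragments is unknown.

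Values were summed over the loci of a gene name, and names that share all loci were taken as 1 gene. Genes with a mean of at least 1 FPKM (9987) entered 1 limma 3.58.1 fit (R 4.3.3) of log2(FPKM + 1) with 3 group means and a variance trend. P-values are two-sided, with Benjamini-Hochberg adjustment over all 9987 and a threshold of 0.05. SE, intervals and differences come from this fit, which was tested on simulated data. The long noncoding RNAs and gene lists were chosen with earlier results of these data known. From each list, up to 3 called genes with the largest rise and up to 3 with the largest fall are named, except that some items are not reported here. Alternatives changed the pseudocount, filter, scaling, variance model, locus handling, samples and replicate block, or left out 1 library. Annotation is GENCODE vM39. Python 3.11.15, pandas 2.3.3, NumPy 2.4.6 and Matplotlib 3.10.9 were used.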

Additional observations from a re-analysis of the deposited data

How the results depend on the processing

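Over all genes, 6998 were called between E18 and adult control, 974 between adult miR-1247 and adult control, and 6979 between E18 and adult miR-1247. For miR-1247 against control this count was 343 with no variance trend, 347 with only the 2 groups compared and 584 with the replicate block. Leaving out 1 library at a time, it ranged from 121 to 242, against 5930 to 6856 for E18 against control and 5941 to 7013 for E18 against miR-1247. An arm left with 1 library was assumed to vary like the others. A call gained in such a fit, as that of Snhg1 between the adult groups without either adult control library, is no usable test. The cause of the drops in these counts was not tested. Of the 7 long noncoding RNAs tested, 4, 1 and 4 were called in these 3 comparisons. Leaving out 1 library gave 2 to 4, 1 to 2 and 2 to 5, and for miR-1247 against control no variance trend gave 0. Called RNAs and list genes picked by the naming rule kept their call under all 16 alternatives in 29 of 34 cases for E18 against control, 30 of 34 for E18 against miR-1247 and 0 of 13 for miR-1247 against control.

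These differences changed sign, and the cause was not tested. Malat1 between E18 and miR-1247 was -0.15 with median ratio scaling, -0.12 after rescaling without mitochondrial loci, and from -0.040 to 0.13 when 1 library was left out. Leaving out 1 library gave Snhg1 a range of -1.95 to 3.17 for E18 against control, Snhg6 one of -0.48 to 0.29 and Epb41l4aos one of -0.80 to 1.61, the last pair for miR-1247 against control.

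The correlation of deviations from the group means between same-numbered libraries was -0.008, -0.002 and 0.004 over 9987 genes for the 3 pairs of groups. These values show no common shift, but they cannot tell whether same-numbered libraries shared a preparation. With the replicate block, Snhg8 was called between E18 and miR-1247 (1.24, adjusted p = 0.0299).

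With 2 libraries a group and no counts, limits are set by the spread between libraries, which is wide for Snhg1, Epb41l4aos, Snhg8 and Gas5.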

Other observations

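The table numbers its entries anew after 9963 rows, and 7 of the 9 long noncoding RNAs (all but Malat1 and Snhg11) lie among the 1141 rows that follow. There, 195 of 926 loci carry more than 1 gene name, against 0 in the first stretch. The table does not say how the stretches differ. Snhg14, an imprinted snoRNA host and the 1 gene of the list of 8 noncoding hosts not called between E18 and control, was at 504.2 and 497.7 FPKM in adult control, 399 and 241 in adult miR-1247 and 557 and 629 at E18, and was not called in limma between miR-1247 and control (adjusted p = 0.0872). Rian, an imprinted snoRNA host near Meg3, was at 2349 FPKM in one control library and at 82.5 in the other, against 76.6 and 83.9 in adult miR-1247 and 467 and 512 at E18. It was not on that list and was not called between E18 and control (adjusted p = 0.927 in limma). Rmst was at 123 and 14.2 FPKM in the control libraries, 45.8 and 57.3 in miR-1247 and 15.4 and 17.5 at E18. Snhg14, Rian and Rmst were named after their values were seen. Snhg1, Rian and Rmst each had control libraries further apart than the libraries of either other group.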
